A study of Homo sapiens with 12 samples.

Results

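Chromatin regulators and nuclear corepressors were examined in non-small cell lung cancer cells made to express the homeobox transcription factor HOXC6. The members were 37 named genes for histone and DNA modifying enzymes, chromatin remodellers and corepressors, found in the count table by their Ensembl identifiers. Of these, 36 were among the 12584 genes in the table, and SETD2 was not analysed here. A549 and PC9, which are established human lung adenocarcinoma lines, had been infected with a lentiviral vector carrying HOXC6 (A549-HOXC6 and PC9-HOXC6) or with that vector left empty (A549-NEO, PC9-NEO), and all 4 cell populations had been kept under neomycin selection. Polyadenylated RNA was sequenced from 3 libraries of each, 12 in all. The model is forced expression from a vector, and whether a population was a pool or a clone was not given in the sources used here. Within a line, an effect of HOXC6 cannot be told apart from differences that arose in a population through its infection, selection or line of descent.

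Histone methyltransferases, demethylases, acetyltransferases and deacetylases write and erase the marks by which a gene is kept active or silent. Remodellers spend ATP to move or exchange nucleosomes, and DNA methyltransferases place the methyl groups on CG dinucleotides that go with silent promoters. Corepressors carry no DNA-binding domain of their own and bring deacetylases to transcription factors and nuclear receptors. Many of these genes are recurrently mutated in lung cancer, and homeobox factors such as HOXC6 act on chromatin that these enzymes shape.

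Total counts ranged from 1212053 (A549-HOXC6 replicate 2) to 3286577 (PC9-HOXC6 replicate 3), which limits what can be seen for members with few counts. HOXC6 itself was not analysed here, so the labels could not be checked against it. Of the epithelial markers, KRT18 had 2032 to 18268 counts and CDH1 161 to 1504 in the 12 libraries, while EPCAM had 226 to 514 counts in PC9 but 6 to 20 in A549. CLDN4 was not analysed. Defining markers of other cells were near 0, with at most 4 counts for PTPRC, 5 for VWF and 1 for DCN in a library, although COL1A1 had 38 to 198. In A549, all counts of PTPRC (4), VWF (4) and DCN (1) were in A549-HOXC6 replicate 3. A549-HOXC6 replicate 3 stood apart from the other libraries in its dependence on transcript GC content, as given below, and the A549 counts and changes that turn on it are therefore also given without it. The low count filter kept 35 members in each line. Only TET1, a dioxygenase that oxidizes methylated cytosine, fell under it.

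Downregulation was the only direction in which members passed the thresholds in HOXC6 cells, an adjusted p under 0.05 with a log2 fold change above 1 or below -1 (edgeR's quasi-likelihood test). In A549, 5 of the 35 members tested (14.3%) were downregulated, against 5.51% of all 8771 genes tested, and 0 were upregulated, against 1.7%. In PC9, 5 of 35 were downregulated, against 3.56% of 8419 genes, and 0 were upregulated, against 0.962%. ANKRD12, ATRX, PHIP and CHD1 were downregulated in both lines, which made 4 of 35 members against 1.45% of the 7954 genes tested in both. The study had already named ANKRD12 among the genes downregulated in both lines, so its part in these counts was known when the members were chosen. The whole list was also chosen with earlier results of these data known. These counts are therefore a description and not an independent test of the members. KMT2A was the fifth in A549 and BAZ2B the fifth in PC9. In RNA from many cells, a lower level in each cell and fewer cells with the transcript cannot be told apart.

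With no demand on the size of the change, 12 members fell and 4 rose in A549 at an adjusted p under 0.05, against 20.7% and 18.9% of all genes. In PC9, 12 fell and 2 rose, against 14.2% and 13.3%. With the correction for transcript composition described below, 8 fell and 4 rose in A549, against 12.3% and 18.6% of all genes, and 7 fell and 3 rose in PC9, against 6.41% and 16.2%. Every A549-HOXC6 library lay below every A549-NEO library for 16 of 35 members, where 25.7% of all genes did so, and the same held for 17 of 35 members in PC9, where 20.3% did. The median log2 fold change of the members was -0.27 in A549 and -0.25 in PC9, while that of all genes tested was 0.00 in both, and 29 and 26 of the 35 members had a negative value. Without A549-HOXC6 replicate 3, the A549 median was -0.26 and 4 members were downregulated. ANKRD12 then had a log2 fold change of -2.004 (adjusted p = 8.65e-07), CHD1 -1.31 (adjusted p = 1.08e-05), KMT2C -0.59, DNMT1 0.43 and HDAC1 0.80, and these changes passed as before.

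**Figure D1:**
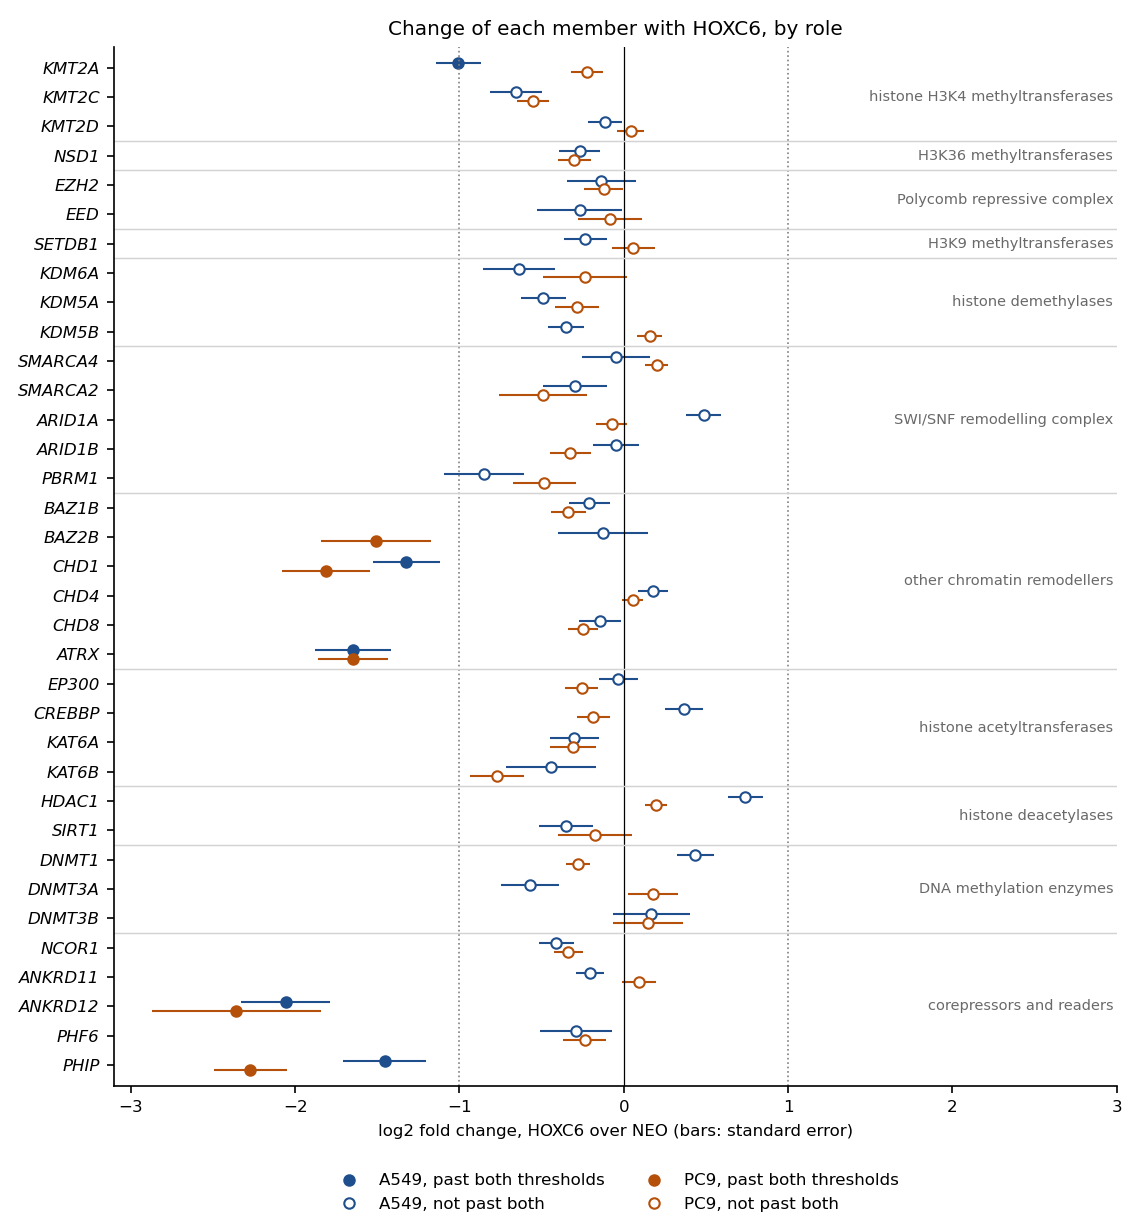
Log2 fold change of HOXC6 over NEO libraries for the 35 members tested, grouped by role, with A549 in blue and PC9 in orange, bars of 1 standard error, and filled points for members past both thresholds. ANKRD12, ATRX, PHIP and CHD1 lie left of -1 in both lines, KMT2A in A549 and BAZ2B in PC9, and no member lies right of 1.

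ANKRD12, a corepressor, had the lowest log2 fold change of the members in both lines. It binds coactivators of nuclear receptors and recruits histone deacetylases to them, and lies on chromosome 18 of GRCh37 from 9136226 to 9285983. The A549-NEO libraries had 64, 70 and 65 counts for ANKRD12 (21.9, 27.9 and 25.2 normalized CPM, read counts scaled by library size) and the A549-HOXC6 libraries 18, 7 and 11 (6.33, 5.83 and 5.54 CPM). In PC9-NEO there were 13, 19 and 12 counts (7.22, 9.84 and 5.23 CPM) and in PC9-HOXC6 only 3, 2 and 4 (1.49, 1.52 and 1.26 CPM). The groups were apart in both lines, and the PC9-HOXC6 libraries were near the lower limit of what was counted. On the log2 scale, ANKRD12 changed by -2.06 in A549 (SE 0.269, adjusted p = 9.35e-07) and -2.36 in PC9 (0.513, adjusted p = 7.89e-04). Over the PC9 libraries, 9 counts stood against 44, a ratio of 0.189 with an exact 95% interval of 0.0812 to 0.392 that covers counting error only.

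ANKRD11, the close paralog of ANKRD12 with the same kind of function, did not follow it. Its libraries had 340, 345 and 364 CPM in A549-NEO against 308, 286 and 312 in A549-HOXC6. In PC9 it had 94.4, 97.4 and 99.0 CPM in the NEO libraries and 97.8, 113 and 102 in the HOXC6 libraries. The log2 fold changes of ANKRD11 were -0.21 (adjusted p = 0.0543) and 0.09 (adjusted p = 0.543), so neither passed, although the A549 value passed with the correction for transcript composition (-0.20, adjusted p = 0.0224). Within a library, the log2 ratio of ANKRD12 to ANKRD11 in CPM was -3.81 ± 0.164 in A549-NEO, against -5.68 ± 0.119 in A549-HOXC6, and -3.75 ± 0.469 in PC9-NEO, against -6.20 ± 0.154 in PC9-HOXC6 (mean ± SD, n = 3 each), with no overlap in either line. The paralogs are built from codons of different composition. The transcript of ANKRD12 has a GC content of 35.6% and that of ANKRD11 58.0%, and at the third codon position the values are 27.0% and 72.1%. The longest stretch in which both genes encode the same residues shows this directly. It is 19 codons long and lies in the last coding exon of each gene, exon 13 of 13, at chr16:89335015-89335071 on the minus strand for ANKRD11 (codons 2603 to 2621) and chr18:9280939-9280995 on the plus strand for ANKRD12 (codons 2002 to 2020). Both are read 5′ to 3′ from GRCh37, and capitals mark G and C.
ANKRD11: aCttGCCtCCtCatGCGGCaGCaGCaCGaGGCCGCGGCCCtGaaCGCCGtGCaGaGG
ANKRD12: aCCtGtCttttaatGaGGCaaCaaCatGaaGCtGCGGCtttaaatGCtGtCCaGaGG
These runs differ at 17 of 57 bases, 14 of them at the third position of a codon. G or C takes 40 bases in ANKRD11 (70.2%) and 26 in ANKRD12 (45.6%), for the same amino acids.

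The promoter of ANKRD12 is not AT-rich. The 250 bases before the start of its canonical GENCODE transcript, at chr18:9136529-9136778 on the plus strand of GRCh37, have a GC content of 76.0% and 37 CG dinucleotides, and over the 9156 such windows of genes tested the medians were 66.4% and 22. This was not shared by all downregulated members. The windows of KMT2A (78.4%), PHIP (71.6%) and CHD1 (70.8%) were also above the median GC content. Those of ATRX (48.8%, 8 CG dinucleotides) and BAZ2B (38.4%, 2 CG dinucleotides) were below both medians. The ANKRD12 window is shown with capitals at each CG.
ANKRD12 promoter: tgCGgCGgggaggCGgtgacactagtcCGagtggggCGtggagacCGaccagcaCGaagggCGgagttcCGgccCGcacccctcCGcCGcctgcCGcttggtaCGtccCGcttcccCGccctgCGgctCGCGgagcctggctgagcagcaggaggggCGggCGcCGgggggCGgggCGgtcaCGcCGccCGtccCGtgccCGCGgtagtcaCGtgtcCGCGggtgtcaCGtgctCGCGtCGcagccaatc
The letters TAAT, the core that homeobox proteins bind, were searched on both strands. They were in 29.2% of all windows and in 10 of the 35 member windows, a share close to that of all windows. Of the 6 members past both thresholds in at least 1 line, BAZ2B had them in its window, and ANKRD12, ATRX, PHIP, CHD1 and KMT2A did not. This is a description of these letters in these windows only.

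PHIP is a bromodomain protein that reads histone marks and serves as a substrate receptor of a ubiquitin ligase. It lies on chromosome 6 from 79644136 to 79788004. Its level was 31.5, 29.0 and 29.1 CPM in A549-NEO against 15.5, 9.99 and 5.54 in A549-HOXC6, where the lowest library was replicate 3. In PC9 it was 40.5, 46.6 and 37.9 CPM in the NEO libraries and 6.95, 9.11 and 9.42 in the HOXC6 libraries. The groups were apart in both lines, with a wide spread among the A549-HOXC6 libraries. On the log2 scale, PHIP changed by -1.46 in A549 (SE 0.255, adjusted p = 5.20e-05), or -1.13 without A549-HOXC6 replicate 3 (adjusted p = 1.97e-04), and -2.27 in PC9 (0.221, adjusted p = 5.65e-09). Opposite-strand exons overlap those of PHIP by 668 bp and those of ANKRD12 by 128 bp, and the strand setting of the counting was not given in the sources used here.

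NCOR1, the scaffold of the nuclear receptor corepressor complex, fell slightly in both lines. Its level was 281, 293 and 272 CPM in A549-NEO against 216, 254 and 174 in A549-HOXC6, and 170, 177 and 169 CPM in PC9-NEO against 147, 131 and 130 in PC9-HOXC6. No HOXC6 library reached the NEO libraries of its line. The log2 fold change of NCOR1 was -0.41 in A549 (adjusted p = 0.00279; -0.29 without A549-HOXC6 replicate 3) and -0.34 in PC9 (adjusted p = 0.00481). PHF6, a zinc finger protein that binds a deacetylase complex, had log2 fold changes of -0.29 and -0.24 that did not pass. With the correction for transcript composition, NCOR1 passed in neither line, and the values of PHF6 turned to 0.37 in A549, which did not pass, and 0.37 in PC9, which did (adjusted p = 0.0388). Of this role, 3 of 5 tested genes had an adjusted p under 0.05 in each line, all with lower levels in HOXC6 cells before that correction. Of all genes, 20.7% fell in A549 and 14.2% in PC9 at that adjusted p.

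Among the remodellers, the ATPases ATRX and CHD1 fell in both lines. ATRX works with a histone chaperone to place a histone variant in heterochromatin and at telomeres, and lies on chromosome X from 76760358 to 77041719. It had 38.1, 44.6 and 41.6 CPM in A549-NEO against 18.6, 11.7 and 7.05 in A549-HOXC6. In PC9-NEO it had 32.8, 42.0 and 41.4 CPM, and in PC9-HOXC6 it had 14.9, 12.2 and 10.7. All HOXC6 libraries were below all NEO libraries of the same line. On the log2 scale, ATRX changed by -1.65 in A549 (SE 0.232, adjusted p = 2.83e-06) and -1.65 in PC9 (0.212, adjusted p = 6.59e-07), and -1.33 in A549 without A549-HOXC6 replicate 3 (adjusted p = 2.90e-06).

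CHD1 binds the methylated histone H3 tail of active promoters through its chromodomains and travels with elongating RNA polymerase. It lies on chromosome 5 from 98189689 to 98264711. In A549 it had 40.1, 30.2 and 36.1 CPM in the NEO libraries and 14.8, 13.3 and 14.1 in the HOXC6 libraries. In PC9 it had 24.4, 35.2 and 35.8 CPM against 4.47, 9.87 and 11.9. The A549-HOXC6 libraries lay close together, and PC9-HOXC6 replicate 1, with 9 counts, was the lowest of all. On the log2 scale, CHD1 changed by -1.32 in A549 (SE 0.206, adjusted p = 1.13e-05) and -1.81 in PC9 (0.267, adjusted p = 5.58e-06). The exons of ATRX and CHD1 share 0 bp with the opposite strand.

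BAZ2B, a bromodomain protein of the imitation switch remodellers, passed in PC9 alone, and whether the lines differ was tested directly below. It had 18.3, 16.6 and 15.7 CPM in PC9-NEO against 9.93, 3.04 and 4.39 in PC9-HOXC6, from 20, 4 and 14 counts. In A549 it had 13.7, 14.7 and 19.4 CPM in the NEO libraries and 12.3, 9.16 and 21.1 in the HOXC6 libraries. The PC9 groups were apart and the A549 groups overlapped, with the highest A549 value in a HOXC6 library. The log2 fold change of BAZ2B was -1.51 in PC9 (standard error 0.334, adjusted p = 9.28e-04) and -0.13 in A549 (adjusted p = 0.743). Its exons share 894 bp with the opposite strand. Of the other remodellers, BAZ1B had -0.34 and CHD8 -0.25 in PC9 (adjusted p = 0.0161 and 0.0445, or 0.0516 and 0.185 with the correction for transcript composition), neither passed in A549, and CHD4, the ATPase of the nucleosome remodelling and deacetylase complex, had 0.18 and 0.05 and passed in neither line.

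**Figure D2:**
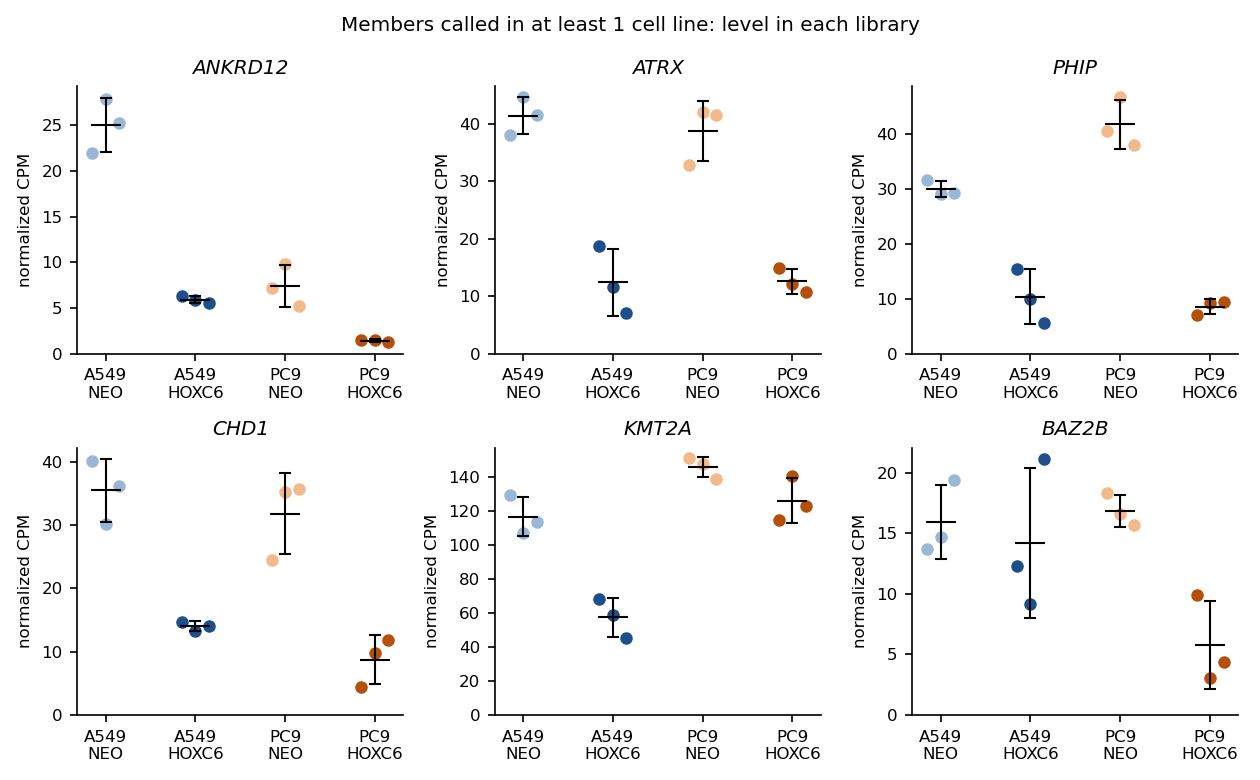
Normalized CPM of the 6 members past both thresholds in at least 1 line, in each of the 12 libraries, with horizontal lines at the group mean and bars of 1 SD (n = 3). The HOXC6 points lie below the NEO points of the same line in every panel except KMT2A in PC9 and BAZ2B in A549, where they overlap.

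KMT2A and KMT2C, methyltransferases of histone H3 lysine 4 that act at promoters and at enhancers, both had lower levels in A549-HOXC6, and KMT2D did not pass in either line. KMT2A, on chromosome 11 from 118307171 to 118397547, had 129, 107 and 113 CPM in A549-NEO against 68.2, 59.1 and 45.3 in A549-HOXC6. In PC9 it had 151, 148 and 139 CPM in the NEO libraries and 115, 140 and 123 in the HOXC6 libraries, and here the groups overlapped. The log2 fold change of KMT2A in A549 was -1.01 (standard error 0.135, adjusted p = 1.39e-06), just past the threshold of size. It was -0.84 without A549-HOXC6 replicate 3 and -0.93 without A549-NEO replicate 1, so its call rested on these libraries while its adjusted p did not (5.25e-07 and 7.83e-05). The size was also missed with RLE size factors (-0.997), with all 12 libraries in 1 model (-0.96) and with the correction for transcript composition (-0.76). In PC9 the log2 fold change was -0.22 (adjusted p = 0.0844).

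KMT2C had 50.7, 52.1 and 45.4 CPM in A549-NEO against 33.4, 31.6 and 28.7 in A549-HOXC6. In PC9 it had 128, 137 and 143 CPM against 89.4, 94.9 and 94.8. These differences were small, and the groups were apart in both lines. The log2 fold change of KMT2C was -0.66 in A549 (adjusted p = 0.00175) and -0.55 in PC9 (adjusted p = 8.01e-05). With the correction for transcript composition, KMT2C had -0.31 in A549 and -0.22 in PC9 and passed in neither (edgeR's adjusted p = 0.123 and 0.104). KMT2D, its paralog, had -0.11 and 0.04 and did not pass.

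All 3 histone demethylases passed at any size in A549, where 20.7% of all genes fell, and none in PC9, but with the correction for transcript composition none passed in A549 and KDM5B rose in PC9. KDM6A, which removes methyl groups from histone H3 lysine 27 and is a subunit of the KMT2C and KMT2D complexes, changed by -0.64 in A549 on the log2 scale (adjusted p = 0.0221), although its A549 groups overlapped. KDM5A and KDM5B, which remove methyl groups from lysine 4, had -0.49 and -0.35 (adjusted p = 0.00533 and 0.0127). In PC9 the values of KDM6A, KDM5A and KDM5B were -0.24, -0.28 and 0.16. With the correction, KDM6A had -0.31, KDM5A -0.040 and KDM5B -0.018 in A549 (adjusted p = 0.289, 0.831 and 0.911), and KDM5B had 0.44 in PC9 (adjusted p = 8.99e-05). The test of the difference between the lines passed for KDM5B, as given below, but not for KDM6A or KDM5A (adjusted p = 0.504 and 0.615).

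Of the 4 histone acetyltransferases, 1 passed at any size in A549, upward, where 18.9% of all genes did so. Another passed in PC9, downward, where 14.2% did so. CREBBP, a coactivator that acetylates histones at enhancers, changed by 0.37 in A549 on the log2 scale (adjusted p = 0.0118) and -0.19 in PC9 (adjusted p = 0.181). Its paralog EP300 had -0.03 and -0.26 and did not pass. KAT6B had -0.77 in PC9 (adjusted p = 6.68e-04) and -0.44 in A549 (adjusted p = 0.210), and KAT6A had -0.30 and -0.31 in A549 and PC9 and passed in neither.

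HDAC1, the deacetylase shared by several corepressor complexes, was the member with the highest log2 fold change in A549. It had 136, 124 and 132 CPM in A549-NEO against 206, 259 and 198 in A549-HOXC6. In PC9 it had 350, 336 and 353 CPM in the NEO libraries and 393, 415 and 386 in the HOXC6 libraries. Every HOXC6 library was above the NEO libraries of its line. On the log2 scale, HDAC1 changed by 0.74 in A549 (SE 0.106, adjusted p = 3.41e-06) and 0.20 in PC9 (0.0683, adjusted p = 0.0309), below the threshold of size in both. SIRT1, a deacetylase that uses NAD, had -0.35 in A549 and -0.17 in PC9 and did not pass.

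DNMT1, which copies DNA methylation after replication, moved in opposite directions. It had 107, 90.3 and 104 CPM in A549-NEO against 145, 119 and 140 in A549-HOXC6. In PC9 it had 306, 292 and 304 CPM in the NEO libraries and 254, 258 and 235 in the HOXC6 libraries. The groups were apart in both lines, upward in A549 and downward in PC9. On the log2 scale, DNMT1 changed by 0.44 in A549 (SE 0.111, adjusted p = 0.00278) and -0.28 in PC9 (0.0742, adjusted p = 0.00491). Of the enzymes that methylate DNA anew, DNMT3A had -0.57 in A549 (adjusted p = 0.0112) and 0.18 in PC9, which did not pass, and DNMT3B had 0.17 and 0.15 and passed in neither. TET1 had 17 counts in all in A549-HOXC6 against 20 in A549-NEO, and 8 in PC9-HOXC6 against 15 in PC9-NEO. The ratios of 1.13 (exact 95% interval 0.555 to 2.27) and 0.493 (0.181 to 1.24), which allow for library size, leave no difference detectable at this depth.

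In the SWI/SNF complex, which opens chromatin at enhancers, ARID1A rose by 0.49 in A549 on the log2 scale (adjusted p = 7.61e-04) and PBRM1 fell by 0.85 (adjusted p = 0.00669), a change that did not pass with the correction for transcript composition (-0.38, adjusted p = 0.223). In PC9 these values were -0.07 and -0.48 and did not pass. SMARCA4, the ATPase, had 0.20 in PC9 (adjusted p = 0.0275, or 0.207 with the correction) and -0.05 in A549. SMARCA2, the alternative ATPase, had -0.30 in A549 and -0.49 in PC9, and ARID1B had -0.05 and -0.33, and none of these passed. The Polycomb genes EZH2 and EED, whose complex methylates histone H3 lysine 27, had values between -0.27 and -0.08 in both lines and did not pass. The H3K9 methyltransferase SETDB1 had -0.23 and 0.06 and did not pass, although with the correction its A549 value did (-0.31, adjusted p = 0.0392). The H3K36 methyltransferase NSD1 had -0.27 in A549, which did not pass, and -0.30 in PC9 (adjusted p = 0.0222), which became -0.11 with the correction (adjusted p = 0.455).

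The members were next set against the GC content of their canonical transcripts, because the whole table shows a trend with it in HOXC6 cells. The median GC content was 46.9% for the members and 48.7% for all genes tested in A549, while the median transcript length was 8467 bases against 3424. ANKRD12 (35.6%), PHIP (36.2%), PHF6 (36.5%), ATRX (36.9%) and CHD1 (38.3%) were the members under 40%, and 4 of these 5 were downregulated in each line. BAZ2B, at 40.01%, was next. PHF6, the exception, has a transcript of 4430 bases, while those of the other 4 are 8145 to 11926 bases long. Of all genes under 40%, 19.6% were downregulated in A549 (281 of 1433) and 14.9% in PC9 (204 of 1368), and of those with transcripts of at least 8000 bases 26.5% and 25.1%. Between 50% and 55% the shares were 0.698% and 0.322%. Against their own class of long transcripts under 40%, whose median log2 fold changes were -0.72 in A549 and -0.58 in PC9, the 4 members ranged from -2.06 to -1.32 and from -2.36 to -1.65. The 10th percentiles of that class were -1.34 in A549 and -1.62 in PC9. CHD1 in A549 (-1.32) thus lay within the range of its class, and ATRX in PC9 (-1.65) lay just below it. Over the 35 members, the changes and the GC content had a Spearman's rank correlation of 0.732 for A549 and 0.622 for PC9. Over all genes tested it was 0.530 and 0.527. This is across genes that share the same libraries, and is given as a description.

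**Figure D3:**
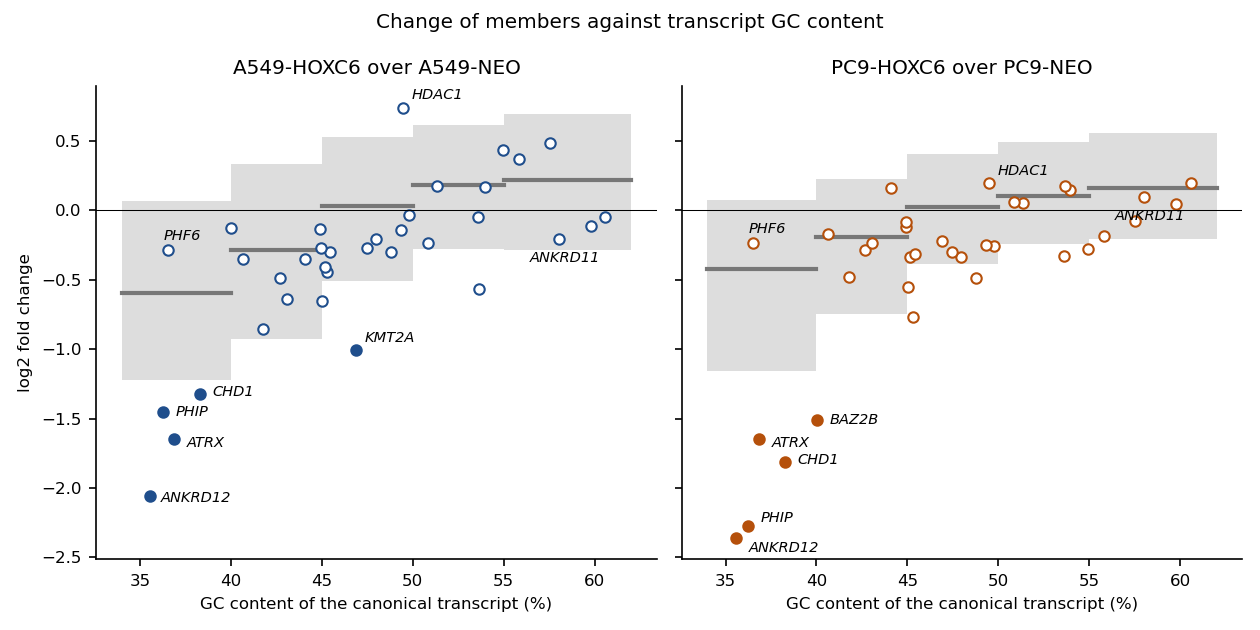
Log2 fold change of the 35 members against the GC content of the canonical transcript in A549 (left) and PC9 (right), with filled points for members past both thresholds. Grey boxes run from the 10th to the 90th percentile of all genes tested in each band of GC content, with transcripts of any length. Grey lines mark their median, and the downregulated members lie below the box of their band in both lines.

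Every HOXC6 library had the trend. The slope of a gene's log2 difference from the NEO mean on GC content, over all genes tested, was between -0.0514 and 0.0363 per 10 points of GC content in the 6 NEO libraries, each set against the other NEO libraries of its line, so that they centre on 0. In A549-HOXC6 it was 0.228, 0.239 and 0.423, the last in replicate 3, and in PC9-HOXC6 0.254, 0.238 and 0.257. The median log2 difference of the 5 members under 40% moved with it, at -1.11, -1.49 and -1.99 in the A549-HOXC6 libraries and -1.72, -1.59 and -1.76 in those of PC9-HOXC6. It was -0.17 to 0.24 in the NEO libraries. The trend and HOXC6 cannot be told apart in these groups, since each HOXC6 library has it.

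**Figure D4:**
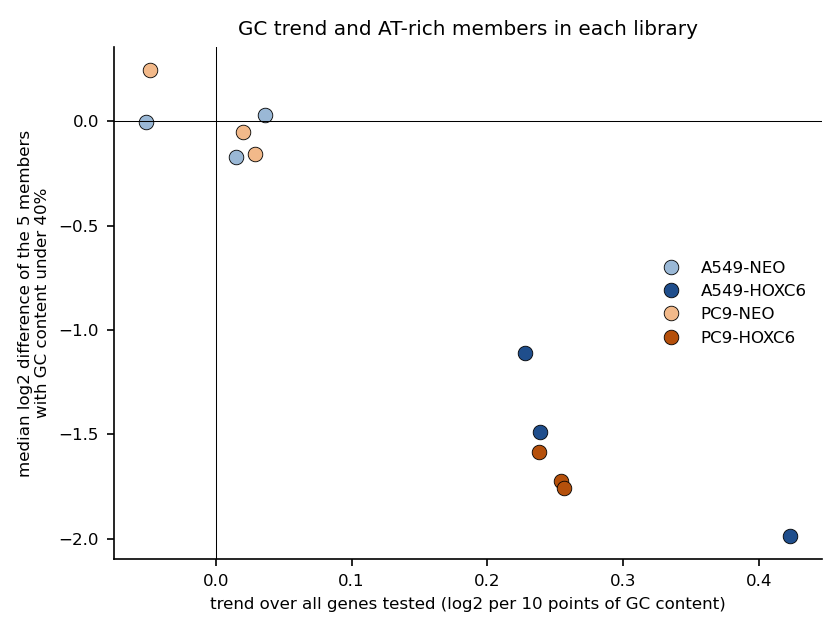
Median log2 difference from the NEO mean of the 5 members with GC content under 40% (ANKRD12, PHIP, PHF6, ATRX and CHD1) against the slope of the same difference on GC content over all genes tested, with 1 point for each of the 12 libraries. The NEO libraries, each set against the others of its line, lie around 0 on both axes, the HOXC6 libraries lie to the lower right, and A549-HOXC6 replicate 3 is the farthest.

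Each library was therefore also corrected for smooth trends with the GC content and the length of the transcripts, called the correction for transcript composition. This left ANKRD12 as the only downregulated member in A549, against 1.63% of all genes, with a log2 fold change of -1.21 (adjusted p = 8.15e-04). ATRX, PHIP, CHD1 and KMT2A had -0.86, -0.64, -0.64 and -0.76 after the correction, with adjusted p of 0.00193, 0.0393, 0.0184 and 3.58e-06, so they kept their direction but not the size. In PC9, 4 members remained past both thresholds, against 1.16% of all genes. PHIP had -1.51 (adjusted p = 1.12e-05), CHD1 -1.23 (adjusted p = 0.00129), ANKRD12 -1.58 (adjusted p = 0.0294) and BAZ2B -1.03 (adjusted p = 0.0274), and ATRX had -0.94 (adjusted p = 0.00160). With the correction, 9.36% of the long transcripts under 40% were still downregulated in PC9 and 2.79% in A549. HDAC1 had 0.60 in A549 (adjusted p = 3.08e-06). Of the 16 members with an adjusted p under 0.05 in A549, 6 lost it with the correction and 2 others gained it, and in PC9 6 of 14 lost it and 2 others gained it. KMT2C and NCOR1 lost it in both lines (0.123 and 0.239 in A549, 0.104 and 0.505 in PC9), PBRM1, KDM6A, KDM5A and KDM5B in A549, and BAZ1B, CHD8, NSD1 and SMARCA4 in PC9. Those that gained it were ANKRD11 and SETDB1 in A549, with lower levels in HOXC6 cells, and KDM5B and PHF6 in PC9, with higher levels. The median of the members moved to -0.08 in A549 and -0.09 in PC9, where the medians of all genes were 0.05 and 0.09.

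The paralog pairs set genes of like function side by side. In A549 the member with the lower GC content had the lower log2 fold change in 8 of 8 pairs, and in PC9 in 7 of 8, the exception being DNMT3A with DNMT3B. These counts include pairs of nearly equal GC content, such as KAT6A (45.4%) with KAT6B (45.3%) and DNMT3A (53.7%) with DNMT3B (53.9%). Over all genes tested, the changes also went with GC content (Spearman's rank correlation 0.530 for A549 and 0.527 for PC9). The share among other pairs of genes was not computed, so the pair counts are a description and not separate support for the trend. Only in the pairs of ANKRD12 with ANKRD11 and of KMT2C with KMT2D did the log2 ratio within a library separate HOXC6 from NEO libraries in both lines. The ratio of KMT2C to KMT2D was -1.52 ± 0.201 in the NEO and -2.06 ± 0.108 in the HOXC6 libraries of A549, and -0.76 ± 0.134 and -1.35 ± 0.180 in those of PC9 (mean ± SD, n = 3 each). Their longest stretch of shared residues, 31 codons, is shown as a second example of how composition differs under the same protein sequence. It lies in exon 52 of 59 of KMT2C at chr7:151845683-151845775 and in exon 49 of 55 of KMT2D at chr12:49420530-49420622, both on the minus strand of GRCh37, with G and C in capitals.
KMT2C: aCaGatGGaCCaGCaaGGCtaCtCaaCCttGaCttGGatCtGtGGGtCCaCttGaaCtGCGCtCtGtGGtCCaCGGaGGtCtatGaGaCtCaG
KMT2D: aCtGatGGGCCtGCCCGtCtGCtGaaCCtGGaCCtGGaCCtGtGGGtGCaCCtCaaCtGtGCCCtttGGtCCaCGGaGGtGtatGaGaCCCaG
G or C takes 50 of 93 bases in KMT2C (53.8%) and 57 in KMT2D (61.3%), and 16 of the 19 differences are at the third position of a codon. Over the whole transcripts the values are 45.02% and 59.78%.

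Whether a member responded differently in the lines was tested as an interaction over all 12 libraries. At an adjusted p under 0.05, 8 of 35 members differed, against 19.4% of 9229 genes, and 1 of them, BAZ2B, differed by more than 1 on the log2 scale, against 5.15%. The change of BAZ2B was higher in A549 than in PC9 by 1.43 (standard error 0.449, adjusted p = 0.02001). Without A549-HOXC6 replicate 3 the difference was 1.04 (adjusted p = 0.109), and without PC9-HOXC6 replicate 2 or 3 it was 1.25 or 1.16 (adjusted p = 0.0537 and 0.102), and without A549-NEO replicate 1 it was 1.33 (adjusted p = 0.0528), so the call rested on each of these 4 libraries. DNMT1 (0.76, adjusted p = 6.07e-05), ARID1A (0.61, adjusted p = 0.00184), CREBBP (0.60, adjusted p = 0.00416) and HDAC1 (0.59, adjusted p = 6.96e-04) also had the higher change in A549. KMT2A (-0.74, adjusted p = 0.00125), DNMT3A (-0.70, adjusted p = 0.0278) and KDM5B (-0.46, adjusted p = 0.0114) had the lower change there. The DNMT3A call was lost without replicate 2 or 3 of A549-NEO, replicate 2 of A549-HOXC6, replicate 1 of PC9-NEO, or replicate 1 or 2 of PC9-HOXC6, with values from -0.69 to -0.59 (adjusted p from 0.0518 to 0.0843), and that of KDM5B without A549-NEO replicate 1 (-0.40, adjusted p = 0.0540). The difference did not pass for ANKRD12 at 0.35 (standard error 0.562, adjusted p = 0.730), ATRX at 0.05 (0.328, adjusted p = 0.953) or CHD1 at 0.54 (0.350, adjusted p = 0.307). PHIP had 0.87 (0.359, adjusted p = 0.0854), and 0.96 after the correction for transcript composition (adjusted p = 0.0384).

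The control cells of the lines differed in the members themselves, a comparison in which line and any batch of libraries cannot be told apart. In A549-NEO, 3 of 35 members were higher than in PC9-NEO, against 19.6% of 9076 genes, and 7 were lower, against 16.4%. SMARCA4 differed the most. It had 65, 53 and 82 counts in A549-NEO, against 663, 743 and 845 in PC9-NEO, and per length of transcript its level was 4.55 ± 1.07 against 65.2 ± 1.62 CPM per kb (SD, n = 3). The log2 difference was -3.80 (standard error 0.108, adjusted p = 1.91e-27). A549 is known as a line without functional SMARCA4 protein, and the A549-HOXC6 libraries had 64, 27 and 55 counts, with a change that did not pass. The alternative ATPase SMARCA2 was higher in A549-NEO by 0.74 (adjusted p = 0.00233).

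The other lower members were EZH2 (-1.997), KAT6B (-1.63), DNMT1 (-1.48), KMT2C (-1.37), HDAC1 (-1.31) and PHF6 (-1.20) on the log2 scale. The 3 higher members were ANKRD11 (1.94), ANKRD12 (1.85) and SIRT1 (1.25). Both paralogs of the ankyrin repeat pair were thus higher in A549, and the log2 ratio of ANKRD12 to ANKRD11 was -3.81 and -3.75 in the control groups. Per length, HDAC1 had the highest level of the members in both control groups, with 62.3 ± 3.06 CPM per kb in A549-NEO and 159 ± 4.24 in PC9-NEO. TET1 had the lowest in both, at 0.262 ± 0.0237 and 0.245 ± 0.115 CPM per kb. ANKRD12 was among the lowest, at 2.24 ± 0.263 in A549-NEO and 0.640 ± 0.199 in PC9-NEO, where ANKRD11 had 38.0 ± 1.38 and 10.1 ± 0.239. Over all genes the difference between the control groups had a Spearman's correlation of -0.00870 with GC content, and over the 35 members of -0.238.

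**Figure D5:**
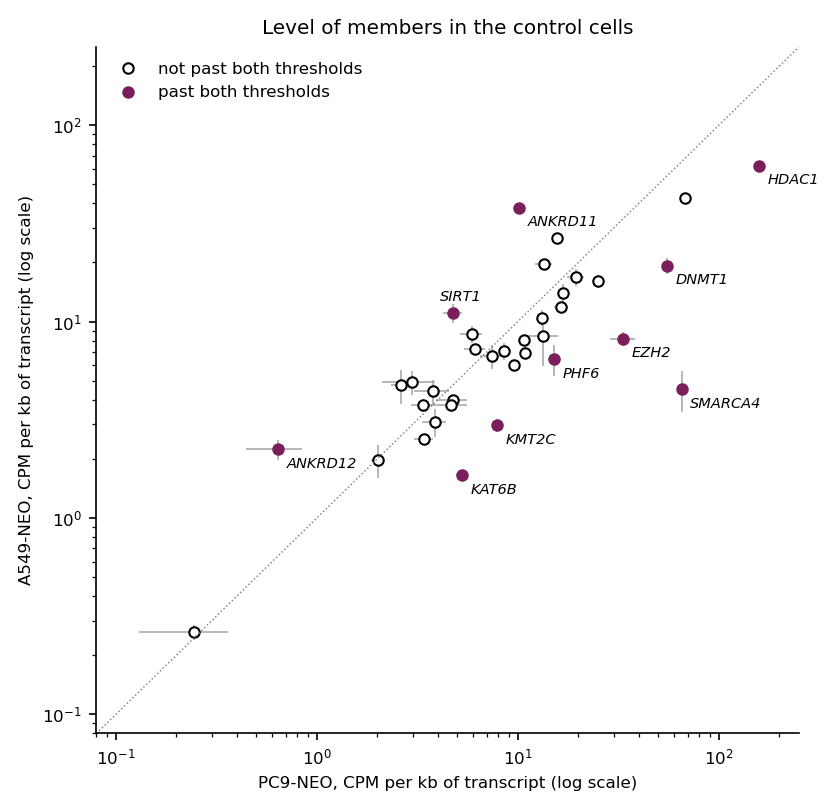
Mean level of the 36 members in the table in A549-NEO (vertical) and PC9-NEO (horizontal), in CPM per kb of canonical transcript on log scales, with bars of 1 SD (n = 3), the dotted line at equal levels and filled points for members past both thresholds. SMARCA4 lies farthest below the line, at 4.55 against 65.2, and ANKRD11, ANKRD12 and SIRT1 are the filled points above it.

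Of a wider list of other genes with the same roles, 79 were in the table. Of the 78 tested in A549, 5 were downregulated (6.41%) and 0 upregulated, against 5.51% and 1.7% of all genes. Of the 78 tested in PC9, the counts were 1 (1.28%) and 0, against 3.56% and 0.962%. The list had median log2 fold changes of 0.02 and 0.01. None was downregulated in both lines, against 1.45% of all genes tested in both. The 3 largest changes in A549 were those of BMI1, a Polycomb ring subunit (-1.63, adjusted p = 5.94e-04), KMT2E, a reader of methylated lysine 4 (-1.18, adjusted p = 2.02e-07), and ASH1L, an H3K36 methyltransferase (-1.14, adjusted p = 3.33e-06). In PC9 it was SUV39H2, an H3K9 methyltransferase (-1.62, adjusted p = 4.26e-04). The transcripts of these 4 genes have GC contents of 40.1%, 41.9%, 44.3% and 38.4%, all below the median. After the correction for transcript composition, 1 gene of the wider list was downregulated in each line, against 1.63% of all genes in A549 and 1.16% in PC9. Without A549-HOXC6 replicate 3 there were 2 in A549 instead of 5, and without A549-NEO replicate 2 there were 3.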

How the data were processed

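Polyadenylated RNA of A549 and PC9 cells was sequenced in paired-end directional libraries, with 3 described as independent replicates in each group, though nothing states whether they came from separate cultures. P-values therefore measure the spread between these libraries. The authors deposited raw read counts per gene, made with HISAT2 (2.1.0) on GRCh37.p13 and HTSeq (0.9.1). The annotation release and strand setting were not given in the sources used here. An incomplete last entry (1) was dropped from the table, which leaves 12584 genes. Totals, which range from 1212053 to 3286577, cover these genes only. Intervals cover counting error only.

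Counts were tested with edgeR (4.0.16, R 4.3.3) by its quasi-likelihood test, with TMM scaling, filterByExpr and Benjamini-Hochberg adjustment over all genes tested, in the 6 libraries of a line, in the 6 NEO libraries, and as an interaction over 12 libraries. The thresholds, an adjusted p under 0.05 with log2 fold changes beyond 1 or -1, follow the study's methods. Names, positions, lengths and GC content came from GENCODE v44 on GRCh37 (12463 genes with an entry, 121 without). The correction for transcript composition took each library's smooth trends with GC content and with length (mgcv 1.9.3) as offsets, and genes without a GC content were left uncorrected. Levels are TMM-normalized CPM within the libraries of a line, or CPM per kb of canonical transcript with 1 scaling over 12 libraries. All members are named under their role. Values in every library are given for those past both thresholds in a line or in the interaction, or with an adjusted p under 0.05 in both lines, and ANKRD11 and SMARCA4, chosen after their values were seen. Wider genes are named if past both thresholds in both lines or among the 3 of largest change in a line. Those named from the control groups or the interaction are outside this rule and were picked by their values. The members and lists were chosen with earlier results of these data known. Alternatives were DESeq2 (1.42.0), other scalings, filters, thresholds and fits, thinning, a replicate block and each library left out. The main edgeR fits and those with the correction for transcript composition were tested on simulated counts, and the other steps were not.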

Additional observations from a re-analysis of the deposited data

Results flagged for a closer look

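The change with HOXC6 differed between the lines, by the interaction test over 12 libraries, for 8 of 35 members (22.9%). Of all 9229 genes tested, 19.4% did so, a share close to that of the members. The calls of BAZ2B, DNMT3A and KDM5B were lost when certain single libraries were left out, as given above. The A549 change minus the PC9 change, on the log2 scale, was 1.43 for BAZ2B, 0.76 for DNMT1, 0.61 for ARID1A, 0.60 for CREBBP, 0.59 for HDAC1, -0.46 for KDM5B, -0.70 for DNMT3A and -0.74 for KMT2A. For DNMT1 the changes had opposite signs, each with an adjusted p under 0.05 in its own line (edgeR's quasi-likelihood test). After the correction for transcript composition, these 8 members kept an adjusted p under 0.05 in the interaction, at values of 1.56 for BAZ2B, 0.72 for DNMT1, 0.60 for ARID1A, 0.58 for CREBBP, 0.47 for HDAC1, -0.41 for KDM5B, -0.72 for DNMT3A and -0.72 for KMT2A.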

How the results depend on the processing

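Of 611 recomputed values for 36 changes of single members, 567 kept direction and side of the threshold, 44 lost the threshold and 0 reversed. Changes within a line that were under the threshold of size from the start could not lose it. Those of KMT2C and NCOR1 thus counted as kept, although both lost an adjusted p under 0.05 with the correction for transcript composition. The members downregulated in A549 numbered 5, and 1 with the test against a log2 fold change of 1, 1 with the correction for transcript composition, with or without the replicate block, 12 with no size criterion, and 4 to 6 with a library left out. Those upregulated were 0, and 4 with no size criterion. In PC9 the 5 downregulated became 2 with at least 10 counts in every library, since ANKRD12, CHD1 and BAZ2B were then not tested, 1 with the test against 1, 3 with the correction and block together, 12 with no size criterion, and 5 to 5 with a library left out, and the 0 upregulated became 2 with no size criterion. Between the control groups, 3 higher and 7 lower of 35 became 8 (22.9%) and 18 (51.4%) with no size criterion. Of the 78 wider genes, 24 (30.8%) were then higher and 33 (42.3%) lower. The share of all genes without the size criterion is not given here, so these counts are not read as a trait of the members. The single line-dependent member became 0 with at least 10 counts or the test against 1, 8 with no size criterion, and 0 to 1 with a library left out. In the wider list, 5 downregulated in A549 became 3 with DESeq2, RLE size factors or 12 libraries in 1 model, 0 with the test against 1, 1 with the correction, with or without the block, 14 with no size criterion, and 2 to 6 with a library left out. The 1 in PC9 became 2 with library size only or thinning, 0 with at least 10 counts or the test against 1, 10 with no size criterion, and 1 to 2 with a library left out. Upregulated wider genes rose from 0 to 1 with thinning and 15 with no size criterion in A549, and to 1 with the correction, with or without the block, and 7 with no size criterion in PC9. The member median became -0.0783 in A549 with the correction and -0.0693 with the block added, and -0.0877 and -0.0882 in PC9, where library size only gave -0.33, and with a library left out it was -0.34 to -0.24 and -0.27 to -0.22. Except where the settings themselves show it (fewer genes tested, another criterion), the cause was not tested.

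Replicate numbers did not pair the samples: deviations of same-numbered libraries correlated between -0.0482 and 0.0423. With the replicate block alone, the downregulated members remained 5 in A549 and 5 in PC9. With block and correction together ANKRD12 in PC9 had -1.49 (edgeR's adjusted p = 0.0554). Counts of 2 to 4 per library limit ANKRD12 in PC9, and the table covers part of the genes.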

Other observations

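The catalytic subunits of the Polycomb complex, which can replace each other, differed between the control groups in opposite directions. EZH2 was lower in A549-NEO than in PC9-NEO (-1.997 on the log2 scale) while EZH1 was higher by 2.66 (standard error 0.182, edgeR's adjusted p = 1.17e-15). In the response to HOXC6, EZH1 differed between the lines by -1.11 (adjusted p = 0.00528) and SUV39H2, an H3K9 methyltransferase, by 1.60 (adjusted p = 0.00667), the only genes of the wider list past both thresholds in that test. Of 78 wider genes tested between the control groups, 8 were higher and 9 lower in A549-NEO, against 19.6% and 16.4% of all genes. The largest values were those of KAT2B, an acetyltransferase (2.71), and EZH1 on the higher side. BRPF3, a scaffold of acetyltransferase complexes, had -2.27, SMARCB1, a core subunit of SWI/SNF, -2.11 and HAT1, which acetylates newly made histones, -2.002. Of the SWI/SNF genes, 1 of 5 members (SMARCA4) and 2 of 9 wider genes (SMARCB1 and ACTL6A, the latter at -1.48) were lower in A549-NEO past both thresholds and 0 were higher. At an adjusted p under 0.05 and any size, 1 member was higher and 2 were lower, and 3 wider genes were higher and 4 lower. Over the whole wider list, 30.8% were higher and 42.3% lower at that adjusted p. ACTL6A was chosen after its value was seen, and the other wider genes named here were picked by their values.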
